A study of Saccharomyces cerevisiae with 6 samples.

Results

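The a-specific genes are the small set of yeast genes that only cells of mating type a normally transcribe. The 7 described here are MFA1, MFA2, STE6, STE2, BAR1, ASG7 and AGA2, chosen by name among the 5791 nuclear and mitochondrial ORFs of the table. Their RNA was measured in 6 libraries from 3 groups of Saccharomyces cerevisiae cultures, with 2 biological replicates each. The groups were dal80Δ cells grown with proline, wild-type cells grown with proline and wild-type cells grown with glutamine. Proline is a poor nitrogen source and glutamine a preferred one, and DAL80 encodes a GATA-type repressor of nitrogen catabolic genes. According to the strain list of the study, the dal80Δ strain is MATa with dal80 replaced by kanMX, and the wild-type strain is MATα. Both strains carry ura3, his3 and trp1. The deletion and the mating type therefore differ together between dal80Δ and wild-type cells, and for these genes the effects of the 2 cannot be told apart. Proline against glutamine compares the MATα wild type with itself.

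Haploid yeast cells are of mating type a or α, set by the genes at the MAT locus. In α cells the repressor α2 binds beside Mcm1 at the promoters of a-specific genes and, with the Tup1-Cyc8 corepressor, keeps them silent, whereas in a cells Mcm1 alone activates them. Their products let an a cell make a-factor, sense α-factor and adhere to an α partner. Mating pheromone raises their transcription further through the factor Ste12, which binds pheromone response elements. NCR-sensitive genes are those that are higher in proline than in glutamine.

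Each of the 7 promoters holds a box for Mcm1 with at least 1 match to the α2 element beside it, and these operators are shown because they are the regulatory sequence that defines the genes. The search covered the 500 nt before the start codon on both strands in the R64 genome sequence of RefSeq. The α2 element was searched as CATGT and the box core as CC and GG with 6 bases between them. In the stretches below, given 5′ to 3′ on the coding strand of each gene, capitals mark the CC and GG of the box and each α2 element, which reads ACATG where it matches the other strand.
MFA1, chr4:1384935-1384978, plus strand: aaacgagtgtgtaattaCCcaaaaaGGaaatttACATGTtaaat
MFA2, chr14:352156-352199, plus strand: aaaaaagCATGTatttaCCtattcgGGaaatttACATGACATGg
STE6, chr11:46471-46514, minus strand: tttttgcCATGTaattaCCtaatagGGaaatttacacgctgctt
STE2, chr6:82345-82388, plus strand: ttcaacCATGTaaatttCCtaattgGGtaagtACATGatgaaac
BAR1, chr9:322071-322114, plus strand: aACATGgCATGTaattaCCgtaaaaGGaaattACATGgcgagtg
ASG7, chr10:101899-101942, minus strand: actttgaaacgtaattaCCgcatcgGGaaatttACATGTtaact
AGA2, chr7:437095-437138, minus strand: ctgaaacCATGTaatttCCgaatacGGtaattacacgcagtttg

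The first base of the box lay between 146 nt (ASG7) and 288 nt (AGA2) before the start codon. The nearest α2 element was 5 nt from the box in 5 of the 7 genes and 6 nt from it in MFA1 and ASG7. An α2 element at exactly 5 nt from a box, on either strand, was found in 15 of 5733 promoters of the genome (0.262%), and 5 of these 15 were MFA2, STE6, STE2, BAR1 and AGA2. An α2 element anywhere in the window was far less particular, being present in 7 of 7 a-specific promoters and in 47.5% of all promoters. The box core alone was in 7 of 7 and in 49.1%.

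The heptamer TGAAACA, the core of the pheromone response element, was also present in 7 of the 7 promoters, against 11.7% of all promoters. It matched once in MFA1, STE6 and ASG7 and at 2 positions in MFA2, STE2, BAR1 and AGA2. The matches closest to the start codon in STE2 and STE6 are shown as examples, with 12 bases on either side. Both lie at or just beyond the end of the operators above. The same holds for a match in BAR1 that starts 274 nt before the start codon and overlaps its operator. In MFA2 a match that starts at 195 nt lies just beyond the operator. In STE6 the heptamer matches the other strand.
STE2, chr6:82371-82401, plus strand: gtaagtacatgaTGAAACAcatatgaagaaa
STE6, chr11:46438-46468, minus strand: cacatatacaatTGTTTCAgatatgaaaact

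GATA letters, the core that Dal80 and its relatives recognise, were not shared in this way. GATAA occurred in 4 of the 7 promoters (MFA1, MFA2, STE2 and BAR1), against 78.3% of all promoters. GATAAG occurred only in that of MFA2 among the 7, against 22.7% of all, and GATTAG in 0 of the 7, against 17.1% of all. These are matches of letters, and no binding was measured here. The study mapped Dal80 on promoters by sequencing of precipitated chromatin (ChIP-Seq), and those data were not used here. It reported that GATA sites occurred no more often in bound than in unbound promoters.

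**Figure D1:**
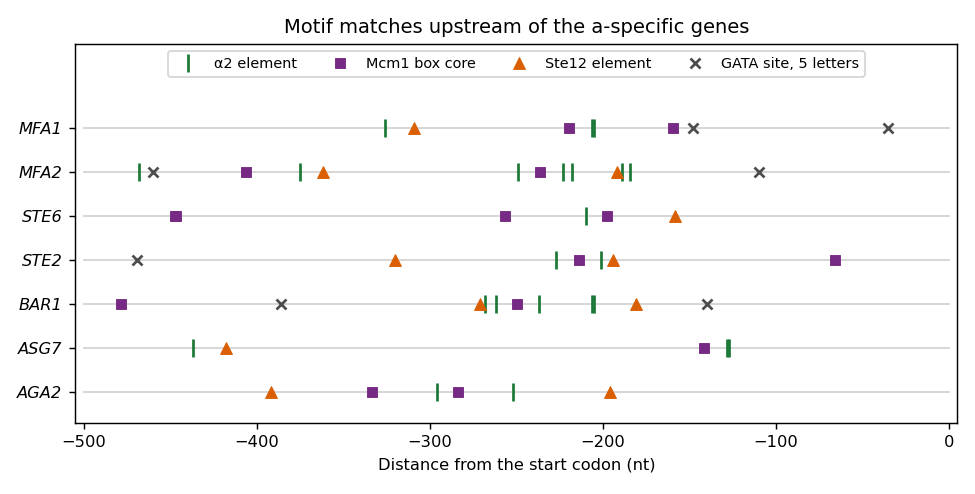
Motif matches in the 500 nt before the start codon of each a-specific gene, plotted by distance from the start codon in nt. Every promoter has a box core with an α2 element (tick) beside it, between 146 and 288 nt before the start codon, and at least 1 Ste12 element, while GATA sites are found in 4 of the 7.

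Reads on ORFs numbered 12304015 to 19968312 per library. Values are given as scaled reads, which are reads multiplied by 1 factor per library (0.551 to 1), and as densities, which are scaled reads per nt of ORF. The log2 scaled reads of the 2 replicates of a group correlated across genes with r of 0.986 to 0.991. DAL80 itself was at 6.15 and 2.75 scaled reads in dal80Δ cells, against 3537 and 2729 in wild-type cells in proline. All 50-nt windows of the 7 members occur once in R64, and the longest run that MFA1 and MFA2 share is 11 nt, so reads of the 2 a-factor genes were separable.

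The mating-type markers set the frame for the members. HMRA1 is the only row of the table that can take up reads of a1, the regulator encoded by MATa, because the reference genome carries MATα. It had 343 and 498 scaled reads in dal80Δ cells, against 0 reads in each of the 2 wild-type proline libraries and 0 in each of the 2 glutamine libraries. The dal80Δ level was at least 191-fold higher than the limit of 3 reads in wild-type cells in proline and at least 140-fold higher than that in glutamine. The 4 α-specific genes, which encode α-factor (MF(ALPHA)1 and MF(ALPHA)2), the a-factor receptor (STE3) and α-agglutinin (SAG1), summed to 720 and 677 scaled reads in dal80Δ cells, against 72859 and 56143 in wild-type cells in proline. Their sum in wild-type cells in glutamine was 77866 and 67743. HMRA1 and the α-specific sum thus go with the strain list, MATa for dal80Δ and MATα for the wild type in either medium. MATALPHA1 was also lower in dal80Δ cells (15.0 and 20.4 scaled reads) than in every wild-type library (76.8 to 113). MATALPHA2 (36.9 and 51.2) was not separate from wild-type cells in glutamine (74.0 and 48.2). Reads on these 2 rows cannot be assigned to a locus, as described below.

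The 7 a-specific genes differed in level between the media within the MATα wild type, and some differed between the strains in proline. In proline-grown dal80Δ cells MFA1, MFA2 and STE6 were higher than in proline-grown wild-type cells, where 3.60% of the genes tested were higher. The ratios of their means were 3.64, 11.0 and 4.0. The other 4 (STE2, BAR1, ASG7 and AGA2) did not pass the thresholds in that comparison, and the means of ASG7 and AGA2 were larger in wild-type cells. In the MATα wild type itself 7 of 7 were higher in proline than in glutamine, where 13.0% of the genes tested were higher. The ratios of means ran from 3.42 (STE6) to 83.3 (MFA1), the latter resting on 4 and 5 reads in glutamine. The calls came from limma over 5645 genes, with p-values adjusted by the method of Benjamini and Hochberg (0.01 or less) and fold changes of 1 or more on the log2 scale, in either direction. The RNA comes from whole cultures, so fewer cells that transcribe a gene and less RNA per cell cannot be told apart.

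**Figure D2:**
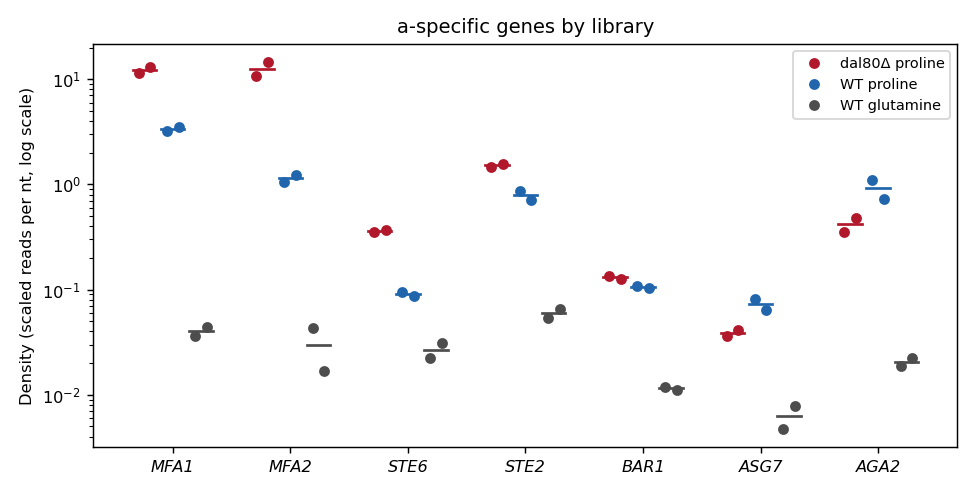
Density (scaled reads per nt of ORF, log scale) of the 7 a-specific genes in each library, with dal80Δ proline, wild-type proline and wild-type glutamine from left to right within a gene; points are libraries and bars are means of 2. Both wild-type glutamine points lie below all proline points for every gene, while the dal80Δ points lie below the wild-type proline points for ASG7 and AGA2. The share of all ORFs whose libraries separate in this way was not counted.

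MFA1 (YDR461W, chr4:1385176-1385286, plus strand) encodes a precursor of a-factor, the farnesylated peptide pheromone of a cells. It had 1259 and 1443 scaled reads in dal80Δ cells and 354 and 388 in wild-type cells in proline, against 4 and 4.92 in wild-type cells in glutamine. The 3 groups did not overlap, and the glutamine values stand for 4 and 5 reads. The log2 fold change was 1.86 (SE 0.16, adjusted p = 0.00019) for dal80Δ over wild type in proline. For proline over glutamine in the wild type it was 6.10 (SE 0.16, adjusted p = 1.1e-06). By summed reads the difference between the media was 83.1-fold, with a 95% counting interval of 43.6 to 182.

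MFA2 (YNL145W, chr14:352414-352530, plus strand) is the second a-factor gene. It had 1256 and 1693 scaled reads in dal80Δ cells and 123 and 144 in wild-type cells in proline, against 5 and 1.97 in wild-type cells in glutamine. The groups were again separate, with dal80Δ far above the wild type in proline. The log2 fold change was 3.44 (SE 0.33, adjusted p = 0.00033) for dal80Δ over wild type in proline, the largest of the 7. Proline over glutamine gave 4.99 (SE 0.33, adjusted p = 2.8e-05). The 7 reads of both glutamine libraries together leave that fold loosely fixed, at 38.5 with a 95% counting interval of 18.5 to 96.3.

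STE6 (YKL209C, chr11:42423-46295, minus strand) encodes the ABC transporter that exports a-factor. It had 1373 and 1438 scaled reads in dal80Δ cells and 369 and 333 in wild-type cells in proline, against 86.0 and 119 in wild-type cells in glutamine. The groups did not overlap, and STE6 kept the most scaled reads of the 7 in glutamine. dal80Δ over wild type in proline gave a log2 fold change of 2.00 (SE 0.17, adjusted p = 0.00019). It was 1.78 (SE 0.17, adjusted p = 0.00011) for proline over glutamine, the smallest of the 7 in that comparison.

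STE2 (YFL026W, chr6:82580-83875, plus strand) encodes the α-factor receptor, a G protein-coupled receptor. It had 1894 and 2034 scaled reads in dal80Δ cells and 1131 and 918 in wild-type cells in proline, against 69.0 and 85.5 in wild-type cells in glutamine. The dal80Δ libraries lay above both wild-type proline libraries, and these far above the glutamine ones. The log2 fold change of 0.95 (SE 0.16, adjusted p = 0.0045) for dal80Δ over wild type passed the p threshold in limma and fell just short of the fold threshold. Between proline and glutamine it was 3.71 (SE 0.16, adjusted p = 5.3e-06).

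BAR1 (YIL015W, chr9:322342-324105, plus strand) encodes the secreted protease that degrades α-factor. It had 236 and 224 scaled reads in dal80Δ cells and 191 and 182 in wild-type cells in proline, against 21.0 and 19.7 in wild-type cells in glutamine. The dal80Δ values lay slightly above the wild-type proline values, but the log2 fold change of 0.30 (SE 0.15, adjusted p = 0.16) did not pass limma's test. Proline over glutamine gave 3.14 (SE 0.15, adjusted p = 8.2e-06). BAR1 was thus the member whose level in MATα cells in proline came closest to that in the MATa strain.

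ASG7 (YJL170C, chr10:101150-101779, minus strand) encodes a protein that damps signalling by the Gβ subunit Ste4 after mating. It had 22.5 and 25.9 scaled reads in dal80Δ cells and 50.7 and 40.3 in wild-type cells in proline, against 3 and 4.92 in wild-type cells in glutamine. The highest libraries here were the wild-type proline ones, without overlap. The log2 fold change of -0.88 (SE 0.33, adjusted p = 0.082) for dal80Δ over wild type did not pass limma's test. Between proline and glutamine it was 3.25 (SE 0.33, adjusted p = 0.00014), and the summed reads, 129 against 8, give 11.5-fold with a 95% counting interval of 5.67 to 27.2.

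AGA2 (YGL032C, chr7:436570-436833, minus strand) encodes the adhesive subunit of a-agglutinin. It had 93.6 and 126 scaled reads in dal80Δ cells and 291 and 191 in wild-type cells in proline, against 5 and 5.90 in wild-type cells in glutamine. As for ASG7, both wild-type proline libraries were above both dal80Δ libraries. The log2 fold change for dal80Δ over wild type was -1.11 (SE 0.26, adjusted p = 0.019 in limma), which did not pass the p threshold. It passed as lower in dal80Δ with edgeR (-1.18, adjusted p = 0.0070) and with DESeq2 (-1.13, adjusted p = 0.0010), and over all 15 alternatives the adjusted p ran from 0.0010 to 0.14. For proline over glutamine the log2 fold change was 5.20 (SE 0.26, adjusted p = 1.1e-05).

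**Figure D3:**
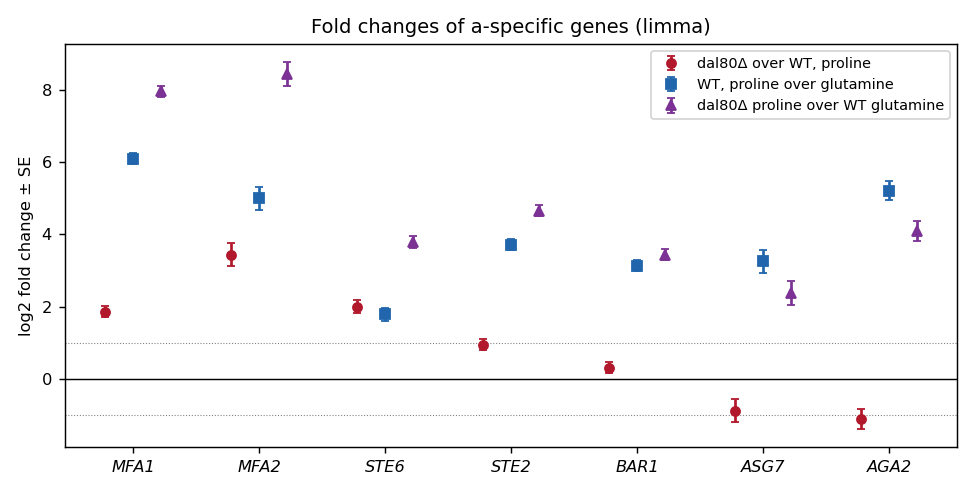
log2 fold change ± SE from limma for each a-specific gene in the 3 comparisons (circles, dal80Δ over wild type in proline; squares, proline over glutamine in the wild type; triangles, dal80Δ in proline over wild type in glutamine); dotted lines mark a log2 fold change of 1 and -1. The squares lie between 1.78 and 6.10, whereas the circles spread between -1.11 for AGA2 and 3.44 for MFA2.

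Counted together, 3 of the 7 members were higher and 0 lower in dal80Δ than in wild-type cells in proline with limma (4 higher and 2 lower at an unadjusted p under 0.05), where 3.60% of the 5645 genes tested were higher and 4.43% were lower. The median log2 fold change of the 7 was 0.95, against 0.05 over all genes. In the wild type 7 of 7 were higher in proline than in glutamine, where 13.0% of genes were higher, and their median was 3.71, against 0.04 over all genes. By the study's definition all 7 would be NCR-sensitive in these MATα cells. The comparison of dal80Δ in proline with wild type in glutamine shares libraries with both others. There 7 of 7 were higher, against 11.9% of genes, with log2 fold changes of 2.37 (ASG7) to 8.43 (MFA2) and a median of 4.09. All 7 members passed the filter on low values. Scaling by total ORF reads instead shifts the median of all genes to 0.96 for proline over glutamine, with 2661 genes higher and 189 lower in place of 733 and 878, and 7 of 7 members were higher there too. For dal80Δ over wild type in proline that scaling gave 138 genes higher and 440 lower in place of 203 and 250, with the same 3 members higher and AGA2 lower. All fold changes, those of the other gene groups below included, are relative to the deposited scaling. Its factors (0.551 to 1) are close to those of a median-of-ratios scaling of the recovered reads, whereas the methods of the study describe a scaling by total ORF reads, and which of the 2 was meant for the deposited values was not settled here.

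The level in MATα cells in proline, set against the MATa strain in the same medium, differed widely among the members. For MFA2 the wild-type mean was 9.08% of the dal80Δ mean, with 7.29% to 11.5% over the 4 pairs of libraries. STE6 reached 25.0% (23.2% to 26.9%), MFA1 27.5% (24.6% to 30.8%) and STE2 52.2% (45.1% to 59.7%). BAR1 reached 81.0% (77.2% to 85.0%), and AGA2 and ASG7 exceeded the dal80Δ level, at 220% (152% to 311%) and 188% (156% to 225%). The pairs of STE6 and MFA1 overlap, as do those of ASG7 and AGA2, and the others are separate. In glutamine the wild-type mean was 0.236% (MFA2) to 16.4% (ASG7) of the dal80Δ mean in proline.

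Per length, the genes for a-factor dominated. In dal80Δ cells the density was 10.7 and 14.5 for MFA2 and 11.3 and 13.0 for MFA1, which overlap, then 1.46 and 1.57 for STE2. AGA2 (0.354 and 0.478) and STE6 (0.355 and 0.371) overlapped below these, followed by BAR1 (0.134 and 0.127) and ASG7 (0.0358 and 0.0411). The order of genes by density depends on the length used. Per nt of annotated transcript AGA2 (0.218 and 0.307) lay below STE6 (0.345 and 0.362) without overlap. By mean density MFA2 ranked 115 and MFA1 125 of 5791 ORFs from the top, whereas ASG7 ranked 5451.

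In wild-type cells in proline MFA1 led alone, with densities of 3.19 and 3.50, and ranked 438 of 5791. MFA2 (1.05 and 1.23) overlapped with AGA2 (1.10 and 0.724), and AGA2 with STE2 (0.873 and 0.708). Per nt of annotated transcript MFA2 (0.697 and 0.823) lay above AGA2 (0.676 and 0.458) without overlap. BAR1 (0.108 and 0.103), STE6 (0.0952 and 0.0860) and ASG7 (0.0805 and 0.0639) were all more than 5-fold below STE2 and did not overlap with each other. STE6 thus lay below BAR1 in this group and above it in dal80Δ cells.

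In wild-type cells in glutamine STE2 had the highest density, with 0.0532 and 0.0660, apart from the rest. Below it MFA1 (0.0360 and 0.0443), MFA2 (0.0427 and 0.0168), STE6 (0.0222 and 0.0307) and AGA2 (0.0189 and 0.0223) overlapped along the order. BAR1 (0.0119 and 0.0111) and then ASG7 (0.00476 and 0.00780) were below them without overlap. Per nt of annotated transcript BAR1 (0.0118 and 0.0105) overlapped with AGA2 (0.0115 and 0.0136) and MFA2 (0.0339 and 0.0111). The median ORF had a density of 0.338, and each member's mean density exceeded that of 2.92% (ASG7) to 11.4% (STE2) of ORFs.

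The summed density of the 7 genes was 24.4 and 30.1 in dal80Δ cells and 6.51 and 6.41 in wild-type cells in proline, against 0.190 and 0.199 in wild-type cells in glutamine. Its make-up also differed. MFA2 made up 44.0% and 48.1% of it in dal80Δ cells, against 16.2% and 19.2% in wild-type cells in proline. AGA2 made up 1.45% and 1.59% in dal80Δ cells, against 17.0% and 11.3% in wild-type cells in proline. The share of MFA1 was closer, 46.4% and 43.3% in dal80Δ cells, against 49.1% and 54.5% in wild-type cells in proline. In wild-type cells in glutamine STE2 had the largest share, 28.0% and 33.1%.

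**Figure D4:**
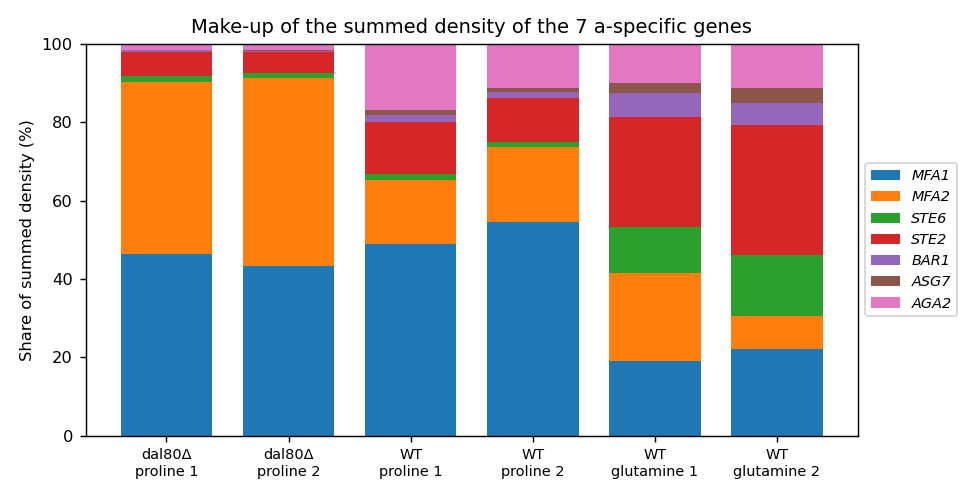
Share (%) of each a-specific gene in the summed density of the 7, by library; each bar is 1 library and adds to 100%. MFA1 and MFA2 fill most of the dal80Δ bars, AGA2 and STE2 take larger shares in wild-type proline, and STE2 has the largest share in glutamine, where the bars rest on 193 and 246 reads.

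Reads outside the ORF but inside the annotated transcript were few. The study's methods do not say how reads that cross the end of an ORF were counted, so these numbers need not describe transcript ends. The densities of the short ORFs of MFA1 and MFA2 (111 and 117 nt) may depend on that counting too. In MFA2 they numbered 43 and 65 in dal80Δ cells, beside 1840 and 3074 on the ORF, against 0 and 2 in wild-type cells in proline, beside 180 and 197. STE2 had 70 and 128 in dal80Δ cells, against 68 and 65 in wild-type cells in proline and 29 and 13 in glutamine. The 29 and 13 stand beside 69 and 87 reads on the ORF, a larger part than in proline. ASG7 had none, its annotated transcript being no longer than its ORF.

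The a-specific genes were set beside other transcripts tied to mating type. Relative to the sum of the 4 α-specific genes, the sum of the 7 a-specific genes was 852% and 1032% in dal80Δ cells. It was 3.45% and 3.91% in wild-type cells in proline and 0.248% and 0.357% in glutamine. Of the 4 α-specific genes 0 passed for proline over glutamine in the wild type with limma, edgeR or DESeq2. Their log2 fold changes were -0.83 to 0.42, although at an unadjusted p under 0.05 limma gave 1 higher and 3 lower. Over all genes tested 13.0% were higher and 15.6% lower with limma. The limit set by 0 reads on HMRA1, the row for a1, was 0.489% and 0.522% of the dal80Δ mean in the wild-type proline libraries. MFA2, the lowest member on that measure, stood at 9.08%. Which cells the reads of the members in the wild type came from was not tested.

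The rows for α2, the repressor of these genes, were higher in proline as well. MATALPHA2 had 258 and 164 scaled reads in wild-type cells in proline, against 74.0 and 48.2 in glutamine, a log2 fold change of 1.77 (adjusted p = 0.0015 in limma). HMLALPHA2 (1.62) and HMRA2 (1.89), which carry copies of all or part of its sequence, were higher too, and the 3 rows summed to 543 and 381 in wild-type cells in proline, against 161 and 114 in glutamine. In dal80Δ cells, MATa by the strain list, the 3 rows summed to 132 and 161. No 50-nt window of HMRA2, the row for a2, occurs once in R64. These dal80Δ reads therefore cannot be taken as α2 RNA, and their source was not tested. The rows for α1 at the same loci were not called between the media: MATALPHA1 had 76.8 and 85.7 scaled reads in wild-type cells in proline, against 113 and 113 in glutamine (log2 fold change of -0.47), and HMLALPHA1 had 72.0 and 83.5, against 64 and 91.4 (0.02). No 50-nt window of these α1 and α2 rows occurs once in R64, so reads on these rows cannot be assigned to a locus and their values are uncertain. The genes for Mcm1 and the corepressor had log2 fold changes of 0.68 (MCM1), -0.96 (TUP1) and 0.29 (CYC8) for proline over glutamine, and 0 of the 3 passed with any of the 3 tools (2 at an unadjusted p under 0.05 in limma, 1 in each direction). Of the 4 SIR genes, which silence the HM loci, 0 passed with limma or DESeq2 and 1 was higher with edgeR. At an unadjusted p under 0.05 in limma 3 were higher. For proline over glutamine 13.0% of all genes were higher and 15.6% lower with limma.

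**Figure D5:**
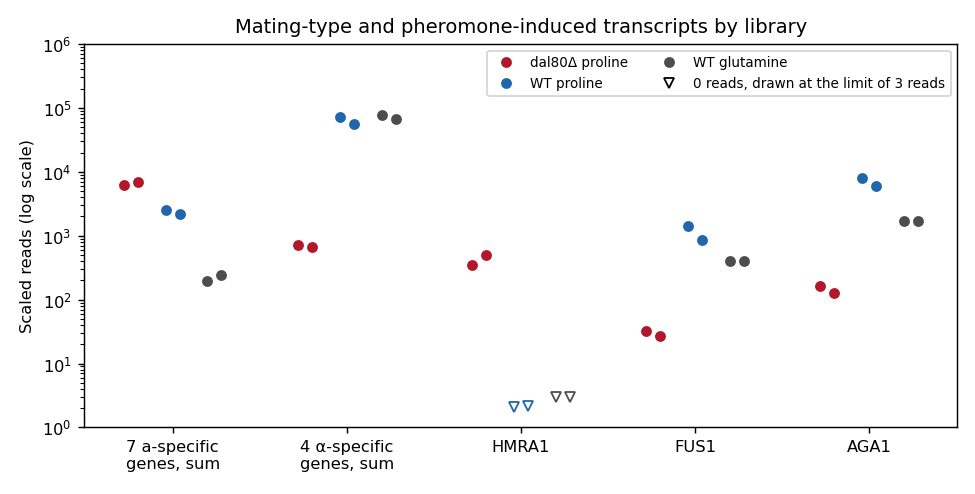
Scaled reads (log scale) of the summed a-specific genes, the summed α-specific genes, HMRA1 and the pheromone-induced genes FUS1 and AGA1, with dal80Δ proline, wild-type proline and wild-type glutamine from left to right; points are libraries and open triangles are libraries with 0 reads, drawn at the limit of 3 reads. The a-specific sum is 2511 and 2197 in wild-type proline, against 193 and 242 in wild-type glutamine, while HMRA1 has no read in the wild type and the α-specific sum is 56143 or more.

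Genes induced by mating pheromone in either cell type were called in the same direction as the members for proline over glutamine, and in the opposite one to MFA1, MFA2 and STE6 for dal80Δ over wild type. Of 13 such genes 10 were higher and 0 lower in proline than in glutamine in the wild type with limma, where 13.0% of all genes were higher, and their median log2 fold change was 1.70, against 0.04 over all genes. The largest were PRM2 (3.45), PRM6 (3.09) and FUS2 (2.62). In dal80Δ cells 10 of the 13 were lower than in wild-type cells in proline and 0 were higher, where 4.43% of all genes were lower, and their median was -2.60, against 0.05 over all genes. FUS1, which acts in cell fusion, had 32.1 and 27.0 scaled reads in dal80Δ cells and 1396 and 844 in wild-type cells in proline, against 400 and 401 in glutamine. The part of the pheromone response in the levels of the a-specific genes was not tested.

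AGA1 encodes the cell-wall anchor to which the Aga2 subunit is linked, and it is made by both cell types. It had 165 and 125 scaled reads in dal80Δ cells and 8034 and 5894 in wild-type cells in proline, against 1700 and 1687 in glutamine. AGA1 was thus lower in dal80Δ cells (log2 fold change of -5.57), where AGA2 also had its smaller value of the 2 proline groups.

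The enzymes that mature a-factor are made in both cell types. Of 7 such genes, AXL1, which encodes a protease for the last cleavage of the a-factor precursor, was lower in dal80Δ than in wild-type cells in proline (log2 fold change of -1.40). The other 6 did not pass, and 4.43% of all genes were lower in that comparison. For proline over glutamine the CAAX proteases RCE1 (-1.01) and STE24 (-1.60) were lower in the wild type and 0 were higher, where 15.6% of all genes were lower. With edgeR 1 of the 7 was lower and 1 higher, and at an unadjusted p under 0.05 in limma 5 were lower and 1 higher. MFA1, MFA2 and STE6, which encode the substrates of these enzymes and their exporter, were all higher there.

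Among 13 genes of the pheromone signalling pathway, which reads out the receptor Ste2 in a cells, 5 were lower and 0 higher in dal80Δ cells in proline. Over all genes tested 4.43% were lower and 3.60% higher in that comparison. The 5 were GPA1 (-1.56), encoding the Gα subunit, FUS3 (-2.04), encoding the MAP kinase, STE12 (-1.67), FAR1 (-3.27), which arrests the cell cycle, and SST2 (-4.23), which desensitises the pathway. For proline over glutamine GPA1 was the one gene of the 13 that passed with limma (1.03, higher), where 13.0% of all genes were higher. With DESeq2 1 passed and with edgeR 2, while 10 were higher at an unadjusted p under 0.05 in limma. HO, the endonuclease gene for mating-type switching, was lower in the wild type in proline than in glutamine (-3.03), where 15.6% of all genes were lower. The other 2 haploid-specific genes, RME1 and NEJ1, did not pass in either comparison.

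Genes were then ranked by how closely their log2 profile over the 6 libraries, centred on its mean, followed the mean profile of the 7 members. The root mean square distance was used over 5645 genes. STE2 ranked first (0.165), BAR1 16 (0.632), AGA2 48 (0.853), STE6 61 (0.922), ASG7 92 (1.10), MFA1 142 and MFA2 300. The nearest genes that are not members were MEP2 (0.194), which encodes an ammonium permease, YHR054C (0.282) and MLS1 (0.324), which encodes malate synthase. Next came YLR312C (0.411), GAP1 (0.448), which encodes the general amino acid permease, and DCG1 (0.454). MEP2 had 84334 and 93933 scaled reads in dal80Δ cells and 44432 and 37788 in wild-type cells in proline, against 3585 and 2703 in glutamine. The members entered the mean profile, so their own ranks only describe how alike they are.

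YHR054C also stood among the 15 promoters with an α2 element at 5 nt from a box, and was singled out after its values were seen. It had 591 and 417 scaled reads in dal80Δ cells and 203 and 262 in wild-type cells in proline, against 14.0 and 11.8 in glutamine, and its log2 fold changes were 1.10 (adjusted p = 0.0094) and 4.06 (adjusted p = 1.4e-05). None of its 50-nt windows occurs once in R64, so its reads are uncertain. Of the 10 such promoters that do not belong to a-specific genes, YHR054C and GYP8 were higher and RPL4B was lower in proline than in glutamine. The shares over all genes were 13.0% higher and 15.6% lower. YHR054C and FET3 were higher in dal80Δ than in wild-type cells in proline, where 3.60% of all genes were higher. GYP8 diverges from STE2 across 667 nt and shares the operator of STE2 in its own window. Its log2 fold change for proline over glutamine was 1.21, against 3.71 for STE2.

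The genes on either side of the members were examined in the same way. Of 14 neighbours, 2 were higher and 3 lower in proline than in glutamine in the wild type, where 13.0% of all genes were higher and 15.6% lower, and the median log2 fold change of the neighbours was -0.08. For dal80Δ over wild type in proline 2 were higher, YNL144C beside MFA2 (1.33) and YJL171C beside ASG7 (1.11), and 0 were lower. In that comparison 3.60% of all genes were higher and 4.43% lower. UBA1, which converges with STE6 across 185 nt, was lower in proline than in glutamine (-1.84), where STE6 was higher (1.78). CBT1, which diverges from STE6 across 861 nt, was not called in either comparison.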

How the data were processed

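Reads were strand-specific pairs of 50 nt from rRNA-depleted total RNA, which the authors aligned with TopHat to R64, keeping unique hits. The deposited table gives, for the first glutamine library, whole read counts, and for the other 5 libraries the authors' signal, counts multiplied by 1 factor per library. Deposited densities (signal) are these values divided by feature length. Division by the factor gave whole reads for 100% of 11987 features per library within 1e-06.

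The test of ORFs was that of limma 3.58.1 in R 4.3.3, run with a trend on log2 values of scaled reads after adding 1, with all 6 libraries and 1 term per group (3 residual and 4.54 prior degrees of freedom). filterByExpr kept 5645 of 5791 ORFs; 4 plasmid ORFs were left out. The fitted differences of genes with few reads depend on the pseudocount. Alternatives were edgeR 4.0.16 and DESeq2 1.42.0 on the recovered counts, TMM or total scaling, pseudocounts of 0.5 and 5, no filter, 2 groups only, a replicate block and 6 leave-one-out fits. In simulated data the fit was checked against known fold changes, for dal80Δ against wild type in proline only. Only genes with many reads were changed there, so the check does not cover genes with few reads or proline against glutamine.

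p-values set the difference between groups against the spread between replicate cultures, 2 per group. That spread was pooled over the 3 groups and drawn towards the trend over all genes. Counting intervals (exact, conditional binomial) and limits at 0 reads (3 reads) cover counting error only, as the reads carry no molecular identifiers. Promoters were read from R64 for ORFs with the same coordinates there (5735 of 5767 found). Named genes were the 7 members, companion lists of mating genes and their neighbours, and the non-members nearest in profile. The called genes among the promoters that share the spacing of α2 element and Mcm1 box were also named, chosen after their values were seen. Members and lists were chosen with earlier results of these data known.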

Additional observations from a re-analysis of the deposited data

How the results depend on the processing

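The 21 fold changes of the members (7 genes, 3 comparisons) were recomputed under 15 alternatives, which gives 315 values. None reversed or lost its call, 309 kept their direction and side of the thresholds, and 6 newly passed. All 6 were AGA2 in dal80Δ against wild type in proline. The number of members lower there was 1 with edgeR, with DESeq2, with scaling by total ORF reads and with only the 2 groups fitted, and 0 to 1 when 1 library was left out, being 1 without either glutamine library. The counts of members higher (3, 7 and 7) held in every alternative.

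Over all genes, 453 were called for dal80Δ against wild type in proline and 201 to 521 with 1 library left out; 201 were called without dal80Δ replicate 1, 239 without dal80Δ replicate 2 and 263 without wild-type proline replicate 1. A lone library in a group was assumed to vary like the others. For dal80Δ in proline against wild type in glutamine 1425 were called, and 937 to 1528 with 1 library left out, 937 being without dal80Δ replicate 1. Scaling by total ORF reads called 2850 genes for proline against glutamine in the wild type, where 1611 were called with the deposited factors. For dal80Δ in proline against wild type in glutamine it called 1891 genes higher and 179 lower, in place of 671 and 754. In wild-type proline against glutamine it moved the median of all genes to 0.96, and the members, all still higher, moved with it.

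With the replicate number as a block, 397, 1576 and 1380 genes were called in the 3 comparisons, and 3, 7 and 7 members were higher and 0 lower. Same-numbered replicates deviated together with r of 0.03, 0.18 and -0.24 between pairs of groups, and nothing states that the numbers pair cultures.

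Depth limits the glutamine values most, where MFA1, MFA2, ASG7 and AGA2 rest on 2 to 6 reads per library. With 2 cultures per group and 1 strain per genotype, the spread between strains is not measured.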
